A study of Homo sapiens with 16 samples.

Results

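The integrated stress response regulators described here are 10 genes, ATF4, DDIT3, ATF3, CEBPB, TRIB3, CHAC1, DDIT4, GDF15, NUPR1 and SESN2. Probe sets were taken where the platform's annotation names exactly 1 gene symbol and that symbol is 1 of the 10. This gave 10 probe sets of the 22277 on the array, for 9 of the 10 genes. SESN2, a stress-induced brake on the growth kinase mTORC1, had no probe set annotated to it alone, and its expression is not analysed here. The 9 analysed genes all had log2 4 or more on at least 2 arrays, the minimum for the fit. CHAC1 met it on doxycycline arrays alone, and GDF15 and NUPR1, with 1 array of 0 h at that level, met it only with doxycycline arrays. The 10 genes are known regulators of 1 pathway and were selected on their log2 differences over the time course in earlier results of these arrays. Their values at every time are therefore given as a description and carry no test.

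The arrays measured bulk RNA of A673 cells, an Ewing sarcoma line driven by EWS-FLI1, a fusion transcription factor made of parts of the EWSR1 and FLI1 genes. All 16 arrays came from 1 clone, Asp14, in which doxycycline at 1 ug/ml switches on a hairpin RNA against the fusion. Doxycycline had acted for 18 or 36 h on 3 arrays each and for 53, 72 or 96 h on 2 arrays each, and the 4 arrays of 0 h came from cells with the same construct. The series' title places the arrays in a study of E2F factors and EWS-FLI1. No doxycycline-treated cells without the hairpin were analysed here, so loss of the fusion, the drug and hours in culture cannot be told apart.

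The integrated stress response is a shared relay for several kinds of stress. Separate kinases sense unfolded protein in the endoplasmic reticulum, missing amino acids, double-stranded RNA or haem and mitochondrial stress, and each phosphorylates the initiation factor eIF2. Phosphorylated eIF2 blocks its own exchange factor eIF2B, most translation slows, and the mRNA of the transcription factor ATF4 is translated better. ATF4 then switches on genes of amino acid supply, redox balance and, through CHOP, the product of DDIT3, cell death. Much of the relay runs through translation and phosphorylation, which arrays do not measure.

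ATF4 and its bZIP partners bind composite elements whose core is often written TGATGNAA, so the promoters of the members were searched for these letters on both strands. The windows are those of RefSeq on GRCh38.p14, 250 bases before to 50 after each annotated start, 15 windows for 9 members, with none for NUPR1. Of these 15 windows 2 held the letters, 1 at ATF3 and 1 at CHAC1, against 3.62% of all 35116 promoter windows. They are shown because they are the member windows with the element. Capitals mark the match, which at CHAC1 reads TGATGCAA on the minus strand.
ATF3, chr1:212565157-212565456, plus strand: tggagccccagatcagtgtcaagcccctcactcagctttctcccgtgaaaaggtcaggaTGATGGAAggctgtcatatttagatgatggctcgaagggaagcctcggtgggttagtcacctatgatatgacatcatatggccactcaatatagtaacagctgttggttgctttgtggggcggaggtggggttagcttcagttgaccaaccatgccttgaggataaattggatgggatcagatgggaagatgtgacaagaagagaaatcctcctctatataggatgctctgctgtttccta
CHAC1, chr15:40953221-40953520, plus strand: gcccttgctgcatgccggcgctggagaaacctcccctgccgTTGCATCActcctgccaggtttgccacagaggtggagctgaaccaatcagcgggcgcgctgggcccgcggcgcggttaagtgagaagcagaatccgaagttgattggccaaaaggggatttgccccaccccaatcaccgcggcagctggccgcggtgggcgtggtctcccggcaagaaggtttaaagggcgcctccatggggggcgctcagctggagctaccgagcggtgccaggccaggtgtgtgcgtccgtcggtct
The match spans bases 191 to 184 before the start at ATF3 and bases 209 to 202 before it at CHAC1. TGACGTCA, the cyclic AMP response element, was in 0 of the 15 windows and in 1.85% of all windows. GGAAGGAA, a repeat that EWS-FLI1 is known to bind, was in 0 of the 15 and in 3.67% of all.

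Values are log2 expression made by the submitters with GCRMA, and a difference of 1 is a 2-fold difference. FLI1, whose probe set reads the part of the gene kept in the fusion or in FLI1 itself, had a log2 value of 6.87 ± 0.33 at 18 h, against 10.08 ± 0.07 at 0 h (SD, n = 3 and 4 arrays). It fell by 3.20 ± 0.14 (SE) at 18 h (limma across all genes, Benjamini-Hochberg adjusted p = 5.0e-08) and read between 6.34 and 7.17 on every array of doxycycline. Of 7 Ewing sarcoma markers 6 were on the array and all 6 passed log2 4 on some array. None of 3 blood, 4 epithelial and 3 endothelial markers on the array did so on any. Upper quartiles of log2 value lay between 8.08 and 8.18, and the 3' minus 5' difference of the ACTB control probe sets, a sign of RNA quality, lay between 1.47 and 2.45. In bulk RNA, a change in part of the cells and a like change in every cell cannot be told apart.

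The arrays numbered 1, 2 and 3 at 0 h, 18 h and 36 h did not differ equally. Numbers 2 and 3 differed by at least 1 in 13, 8 and 11 of the 7304 genes tested at 0 h, 18 h and 36 h, whereas number 1 differed that much from either of them in 249 to 402 genes. At 36 h array 1 lay at least 1 below both others for 8 of the 9 members, all but ATF3, and for 2.51% of all genes tested. FLI1 on that array was 6.34, against 6.48 and 6.41 on arrays 2 and 3, and its ACTB difference of 2.21 lay between theirs of 2.45 and 2.09. Differences at 36 h are therefore given with all arrays and, in parentheses or in the next sentence, without array 1. Leaving that array out changes no difference between other times. Their calls then move only because the spread in the fit changes. Since the array was singled out on its values, calls and p-values without it are given as a description. Array 1 also stood apart at 0 h and 18 h, in the other direction. At 0 h it lay at least 1 above arrays 2 and 3 for 3 of the 9 members, DDIT4, GDF15 and NUPR1, and for 1.37% of all genes. Their 0 h means are thus raised by array 1. At 18 h it did so for 2 members, TRIB3 and NUPR1, and for 2.27% of all genes.

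**Figure D1:**
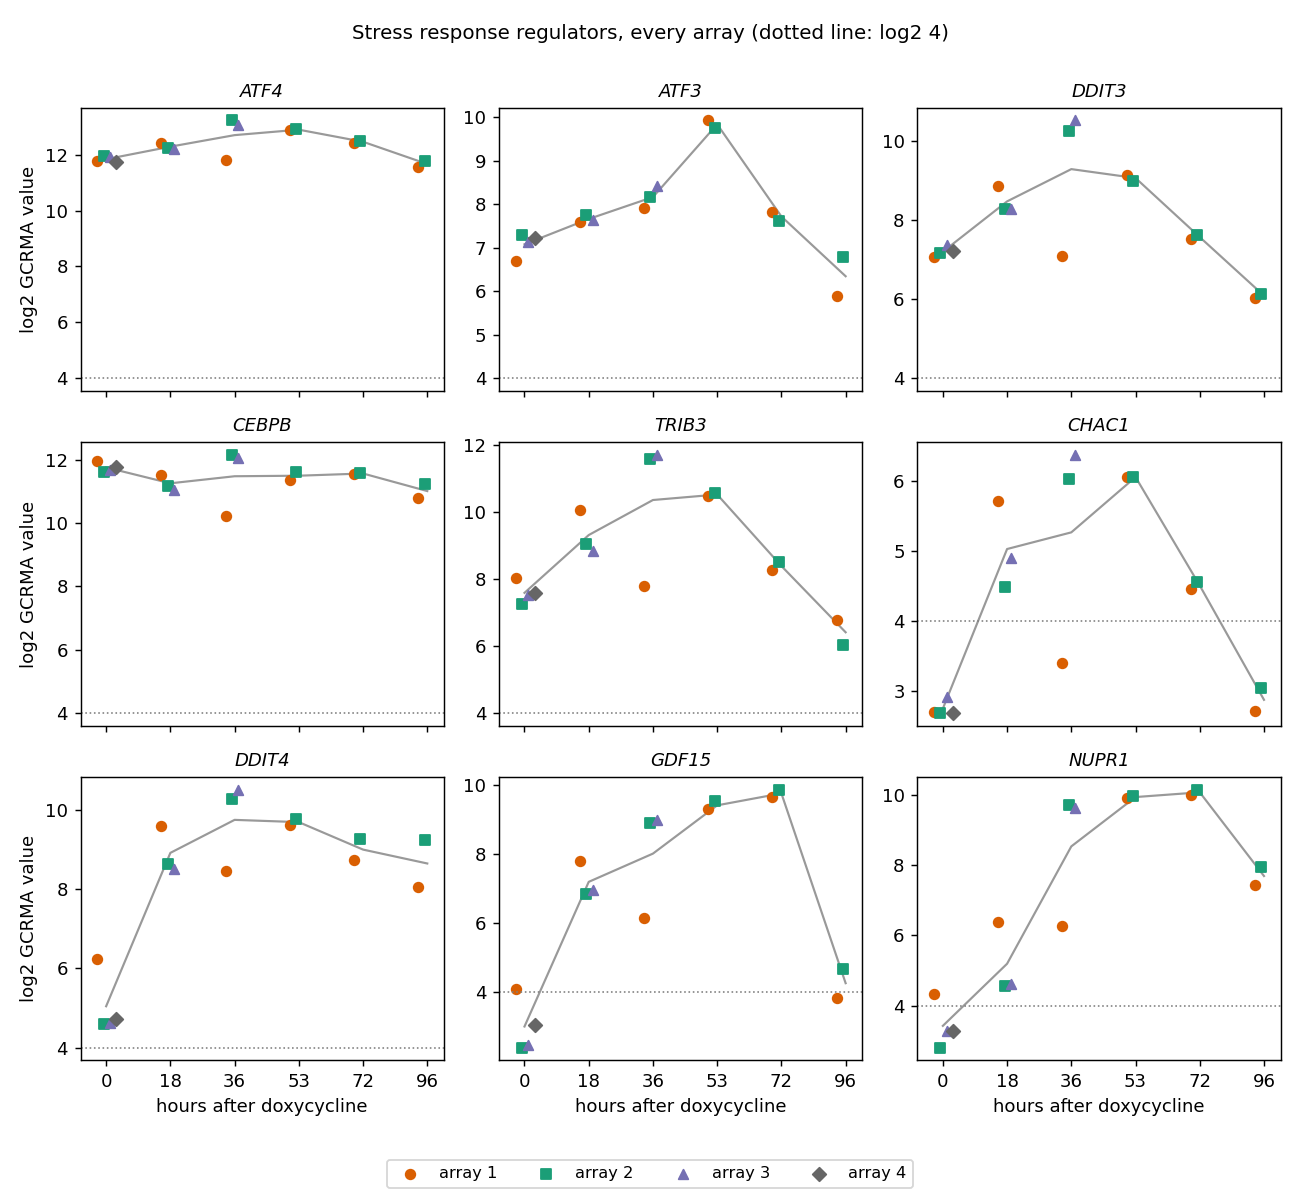
Log2 GCRMA value of each of the 9 members on every array against hours of doxycycline. Points are single arrays, shapes and colours the replicate number, lines the means of each time, and the dotted line log2 4. Array 1 at 36 h reads 7.09 for DDIT3, where arrays 2 and 3 read 10.3 and 10.5.

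ATF4 is the effector of the response, a bZIP transcription factor. Its log2 values were 11.77, 11.93, 11.91 and 11.72 at 0 h, 12.42, 12.22 and 12.21 at 18 h, and 11.81, 13.22 and 13.06 at 36 h. Later arrays read 12.87 and 12.91 at 53 h, 12.42 and 12.50 at 72 h, and 11.55 and 11.78 at 96 h. ATF4 mRNA was thus bright throughout, above every 0 h array at 18 h, 53 h and 72 h, and back among the 0 h values on 1 of the arrays at 96 h. The log2 differences from 0 h at 18, 36, 53, 72 and 96 h were 0.45 ± 0.24, 0.86 ± 0.24, 1.06 ± 0.27, 0.62 ± 0.27 and -0.17 ± 0.27 (SE of the fit, as for every ± beside a difference). Without array 1 the 36 h difference was 1.31, and 36 h rather than 53 h held the highest mean.

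DDIT3 encodes CHOP, a bZIP factor that ATF4 induces and that promotes cell death in long stress. DDIT3 read 7.06, 7.17, 7.36 and 7.22 at 0 h, 8.87, 8.29 and 8.29 at 18 h, and 7.09, 10.27 and 10.53 at 36 h. It read 9.16 and 8.99 at 53 h, 7.52 and 7.63 at 72 h, and 6.05 and 6.14 at 96 h. At 18 h, 53 h and 72 h all arrays stood above those of 0 h, at 36 h array 1 lay among them, and at 96 h both arrays stood below. Relative to 0 h the mean was 1.28 ± 0.58 higher at 18 h, 2.09 ± 0.58 at 36 h (3.19 without array 1), 1.87 ± 0.66 at 53 h and 0.37 ± 0.66 at 72 h. At 96 h it was -1.11 ± 0.66 relative to 0 h.

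ATF3, a bZIP factor induced by many stresses, had another shape. Its values were 6.69, 7.29, 7.12 and 7.22 at 0 h, 7.60, 7.76 and 7.63 at 18 h, and 7.92, 8.16 and 8.42 at 36 h. They were 9.92 and 9.75 at 53 h, 7.82 and 7.61 at 72 h, and 5.90 and 6.79 at 96 h. The 53 h arrays stood above all others, and array 1 at 36 h lay close to its neighbours. ATF3 was 2.76 ± 0.23 higher at 53 h than at 0 h, 6.76-fold, where 36 h gave 1.08 ± 0.20 (1.21 without array 1) and 72 h 0.64 ± 0.23. The 96 h value was -0.73 ± 0.23 relative to 0 h, with overlapping arrays.

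CEBPB, a bZIP factor that pairs with ATF4 and CHOP, was the member whose mean lay below 0 h at every time. It read 11.96, 11.62, 11.66 and 11.77 at 0 h, 11.52, 11.18 and 11.05 at 18 h, and 10.22, 12.14 and 12.06 at 36 h. Values of 11.37 and 11.61 at 53 h, 11.54 and 11.58 at 72 h, and 10.79 and 11.22 at 96 h followed. Differences from 0 h ran from -0.75 ± 0.39 at 96 h to -0.19 ± 0.39 at 72 h. At 36 h the difference of -0.28 ± 0.35 turned to 0.35 without array 1, so its direction at that time rested on 1 array.

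TRIB3 is a pseudokinase that ATF4 and CHOP induce and that restrains them in return. TRIB3 read 8.02, 7.25, 7.51 and 7.58 at 0 h, 10.07, 9.06 and 8.84 at 18 h, and 7.81, 11.58 and 11.71 at 36 h. It read 10.50 and 10.57 at 53 h, 8.26 and 8.53 at 72 h, and 6.78 and 6.05 at 96 h. The course resembled that of DDIT3: high at 53 h, nearer to but still above all 0 h arrays at 72 h, and below all of them at 96 h. TRIB3 was 2.78 ± 0.71 above 0 h at 36 h (4.06 without array 1), 2.94 ± 0.80 at 53 h and 0.80 ± 0.80 at 72 h, and at 96 h it was -1.18 ± 0.80.

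CHAC1 encodes an enzyme that breaks down glutathione and is a target of the ATF4 branch. It read 2.70, 2.69, 2.92 and 2.69 at 0 h, 5.71, 4.48 and 4.89 at 18 h, and 3.40, 6.02 and 6.36 at 36 h. Later values were 6.06 and 6.04 at 53 h, 4.46 and 4.55 at 72 h, and 2.71 and 3.04 at 96 h. The signal was thus below log2 4, the level taken here as dim, on all arrays of 0 h and 96 h, and no fold is given between those times. Against log2 4, CHAC1 was at least 2.03-fold higher at 18 h, 2.40-fold at 36 h (4.57-fold without array 1), 4.14-fold at 53 h and 1.42-fold at 72 h than at 0 h.

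DDIT4 encodes REDD1, an inhibitor of mTORC1 that ATF4, hypoxia and glucocorticoids induce. It read 6.23, 4.59, 4.63 and 4.71 at 0 h, 9.60, 8.65 and 8.50 at 18 h, and 8.45, 10.28 and 10.51 at 36 h. Values of 9.63 and 9.76 at 53 h, 8.74 and 9.26 at 72 h, and 8.06 and 9.24 at 96 h followed. Every array of doxycycline stood above every array of 0 h, including those of 96 h, where DDIT3 and TRIB3 were below 0 h. DDIT4 was 3.87 ± 0.52 higher than 0 h at 18 h, 4.71 ± 0.52 at 36 h (5.36 without array 1), 4.65 ± 0.59 at 53 h, 3.96 ± 0.59 at 72 h and 3.61 ± 0.59 at 96 h.

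GDF15, a secreted stress hormone of the TGF-beta family, had 2 probe sets. The brighter one read 4.08, 2.39, 2.48 and 3.06 at 0 h, 7.79, 6.84 and 6.95 at 18 h, and 6.16, 8.89 and 8.99 at 36 h. It then read 9.29 and 9.53 at 53 h, 9.65 and 9.86 at 72 h, and 3.83 and 4.68 at 96 h. GDF15 thus had its highest arrays at 72 h, where the means of DDIT3 and TRIB3 were 0.37 and 0.80 above 0 h. At 96 h GDF15 overlapped the 0 h arrays. With dim values set to log2 4, the differences of GDF15 from 0 h at 18, 36, 53, 72 and 96 h were 3.17, 3.99, 5.39, 5.73 and 0.32. From the values as deposited they were 4.19 ± 0.59, 5.01 ± 0.59 (5.94 without array 1), 6.41 ± 0.67, 6.75 ± 0.67 and 1.25 ± 0.67. The dimmer probe set of GDF15 averaged between 1.93 and 1.96 at every time and was never above log2 4, so the 2 probe sets disagree.

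NUPR1, a small nuclear protein of the stress response, had its highest mean at 72 h, as GDF15 did. It read 4.34, 2.81, 3.29 and 3.26 at 0 h, 6.40, 4.57 and 4.62 at 18 h, and 6.26, 9.73 and 9.63 at 36 h. Arrays of 53 h read 9.92 and 9.97, those of 72 h 10.01 and 10.16, and those of 96 h 7.44 and 7.95. All arrays of doxycycline stood above those of 0 h, and the 96 h arrays also stood above those of 18 h, which held for no other member. With dim values set to log2 4, the differences of NUPR1 from 0 h at 18, 36, 53, 72 and 96 h were 1.11, 4.46, 5.86, 6.00 and 3.61. As deposited they were 1.77 ± 0.71, 5.12 ± 0.71 (6.25 without array 1), 6.52 ± 0.80, 6.66 ± 0.80 and 4.27 ± 0.80.

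**Figure D2:**
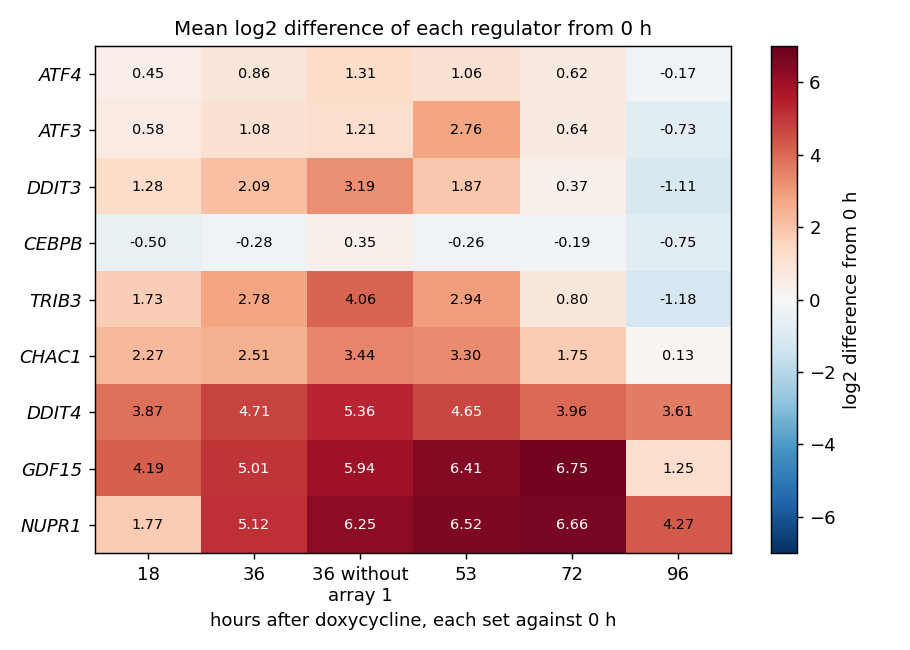
Mean log2 difference of each member from 0 h (colour and printed value) at 18, 36, 53, 72 and 96 h, with 36 h also drawn without array 1. The differences of CHAC1 rest on dim 0 h values, and those of GDF15 and NUPR1 on 0 h values of which only 1 is not dim. NUPR1 and DDIT4 remain 4.27 and 3.61 above 0 h at 96 h, while DDIT3 and TRIB3 are at -1.11 and -1.18. With dim values set to log2 4 that difference of NUPR1 is 3.61.

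The members can be ordered by the time of their highest mean without array 1 of 36 h. ATF4, DDIT3, TRIB3, CHAC1, DDIT4 and CEBPB had it at 36 h, ATF3 at 53 h, and GDF15 and NUPR1 at 72 h. For DDIT4 the 53 h mean of 9.69 and the 36 h mean of 10.4 without array 1 lay apart by more than the spread of either pair, whereas for CHAC1 the means of 6.05 and 6.19 did not. The NUPR1 means of 9.95 at 53 h and 10.08 at 72 h lay apart by less than the range of its 72 h pair, 0.15. With array 1 kept, ATF4, TRIB3 and CHAC1 had their highest mean at 53 h, and CEBPB at 0 h. At 96 h against 53 h the difference was -5.15 ± 0.78 for GDF15, -4.12 ± 0.93 for TRIB3, -3.49 ± 0.26 for ATF3 and -2.98 ± 0.76 for DDIT3. It was -2.25 ± 0.93 for NUPR1, -1.23 ± 0.31 for ATF4, -1.04 ± 0.68 for DDIT4 and -0.49 ± 0.45 for CEBPB. CHAC1 was at least 4.14-fold lower at 96 h than at 53 h.

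Over the 6 time means, which share the 0 h arrays and the scaling of all arrays, the course of DDIT3 correlated with that of TRIB3 at r = 0.993 with all arrays and 0.993 without array 1 of 36 h. DDIT3 with CHAC1 gave 0.901 (0.917 without that array) and DDIT3 with NUPR1 0.283 (0.395), whereas CEBPB with DDIT4 gave -0.46 (0.03). Among all other genes tested, the 2 closest to TRIB3 over the 6 means were PRKAG1 (0.999) and TM2D1 (0.997), and those closest to NUPR1 were GALNS (0.999) and BCHE (0.998). Without array 1 these 4 ranked 38, 88, 42 and 292, and the closest were VAMP7 and OFD1 to TRIB3 and UST and HEXA to NUPR1. TM2D1 and YIPF4 (0.997 each) were closest to DDIT3, and FBXL5 and RAB9A (0.994 each) to ATF4, where the other setting gave TP53BP2 and YIPF4 to DDIT3 and KDM2A and CPVL to ATF4. ASNS, a known ATF4 target, ranked 13 for TRIB3 and 17 for DDIT3, and 3 and 6 without array 1. Of these 8 places for nearest genes 1 was held by the same gene, YIPF4, in both settings. Among the other members this held only for DESI2, the nearest to GDF15 (0.988, and 0.993 without array 1). With 6 points and 7304 genes such values are a description only.

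Same-numbered arrays were also set against each other, although the labels state no pairing and none was established. By number, the 36 h minus 18 h differences of the members varied. The 36 h minus 18 h difference of DDIT3 was -1.77 on number 1, and 1.98 and 2.24 on numbers 2 and 3. TRIB3 gave -2.26 on number 1, against 2.53 and 2.88 on numbers 2 and 3. NUPR1 was nearly level on number 1 at -0.14, with 5.16 and 5.01 on the others. ATF3 went the same way on all 3 numbers, with 0.32, 0.40 and 0.79. At 18 h number 1 was higher than both others for 8 of the 9 members, all but ATF3, and for 3111 of the 7304 genes tested.

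**Figure D3:**
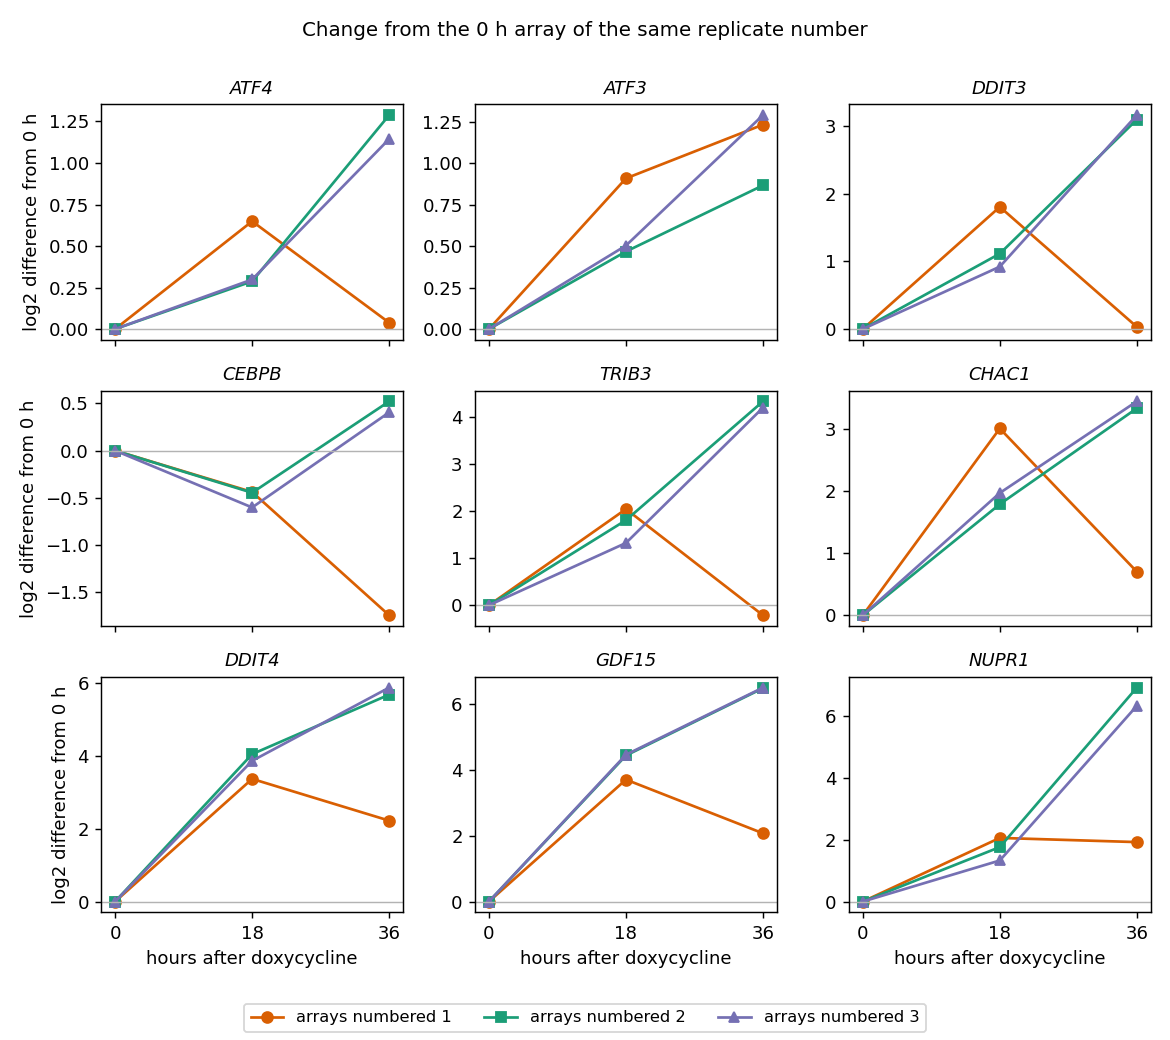
Log2 difference of each member at 18 and 36 h from the 0 h array of the same replicate number, with lines joining each number. The lines follow the numbers of the labels, and no pairing of these arrays was established. For DDIT3 the line of number 1 goes up by 1.81 to 18 h and ends 0.03 above its start at 36 h, while numbers 2 and 3 end 3.10 and 3.16 above theirs.

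Across the whole array, 14.8% of the 7304 genes tested were called higher and 14.7% lower at 18 h against 0 h (limma, adjusted p under 0.05). Of the 9 members 4 were called higher. At 36 h 8 were called higher, where 33.2% of all genes were, at 53 h 8 against 31.8%, and at 72 h 5 against 29.3%. No member was called lower at these 3 times, where 32.1%, 34.5% and 39.2% of all genes were. At 96 h 2 were called higher and 1 lower, where 25.1% and 35.7% of all genes were. At 96 h against 18 h 1 member was called higher and 5 lower, where 19.5% and 30.0% of all genes were, and at 96 h against 53 h 0 were called higher and 6 lower, where 19.0% and 19.8% were. Those counts rest on the choice of the genes, and nothing is read from them. Without array 1 of 36 h 8 members were called higher and 1 lower at 18 h, where 17.3% and 16.2% of all genes were. Under the same setting 9 were called higher at 36 h against 33.0% of all genes, 8 at 53 h against 33.1% and 7 at 72 h against 30.4%, with none lower against 31.3%, 35.5% and 40.1%, and at 96 h 3 higher and 4 lower against 26.5% and 36.9%.

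Upstream of ATF4, 3 of the 4 kinase genes were tested. EIF2AK3, which encodes PERK, the sensor of unfolded protein in the endoplasmic reticulum, averaged 9.18 at 53 h, against 7.84 at 0 h. It rose by 1.16 ± 0.27 at 36 h (1.57 without array 1) and 1.34 ± 0.31 at 53 h (limma adjusted p = 0.0018 and 0.0016). EIF2AK4, which senses missing amino acids, had no probe set annotated to it alone. EIF2AK1, the haem-regulated kinase, differed from 0 h by 0.22 ± 0.10 at 36 h (adjusted p = 0.057) and EIF2AK2, the sensor of double-stranded RNA, by 0.15 ± 0.11 (0.23). Without array 1, EIF2AK1 rose by 0.36 ± 0.07 (8.0e-04), and EIF2AK2 was at 0.11 ± 0.12 (0.47). PPP1R15A, the stress-induced subunit that directs dephosphorylation of eIF2, averaged 8.15 at 53 h, against 6.87 at 0 h. It rose by 0.93 ± 0.24 at 36 h (1.31 without array 1) and 1.28 ± 0.28 at 53 h (adjusted p = 0.0041 and 0.0010) and was at -0.14 ± 0.28 at 96 h.

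Genes of eIF2 itself and of its exchange factor split. EIF2S1, the alpha subunit that the kinases phosphorylate, changed at 18, 36, 53 and 96 h by -0.48 ± 0.10, -1.42 ± 0.10, -1.60 ± 0.11 and -0.76 ± 0.11 (limma adjusted p = 0.0034, 6.6e-08, 5.7e-08 and 7.7e-05), with -1.45 at 36 h without array 1. EIF2B3, a subunit of eIF2B, fell by 1.63 ± 0.11 at 53 h and 0.59 ± 0.11 at 96 h (4.6e-08 and 5.2e-04), and EIF2B1 and EIF2B5 fell by 0.71 ± 0.08 and 1.00 ± 0.13 at 53 h (5.9e-06 and 1.1e-05). EIF2S3, the gamma subunit of eIF2, and EIF2B2, another subunit of eIF2B, were named after their values were seen and rose at 53 h, by 0.72 ± 0.19 and 0.24 ± 0.07 (0.0042 and 0.012). NCK1, an adaptor that limits eIF2 phosphorylation, rose by 0.71 ± 0.12 at 36 h (1.5e-04), and by 0.74 without array 1.

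Of 17 tested genes among the kinases, eIF2, eIF2B and the phosphatase, 2 rose and 3 fell at 18 h, 7 rose and 5 fell at 36 h and again at 53 h, 3 rose and 5 fell at 72 h, and 1 rose and 6 fell at 96 h. Their median difference was 0.01, 0.15, 0.03, 0.01 and -0.04, where all genes had 0.02, 0.02, -0.01, -0.11 and -0.10. Of all genes tested 14.8, 33.2, 31.8, 29.3 and 25.1% rose at these times, and 14.7, 32.1, 34.5, 39.2 and 35.7% fell. The same shares stand beside the counts of the lists below. Without array 1 of 36 h the 36 h median was 0.27, with 8 genes higher and 5 lower. With the replicate number as a block 2 genes of the 17 passed at 18 h rather than 5, and leaving out single arrays gave 1 to 6.

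Among targets of ATF4 in amino acid supply and tRNA charging, ASNS had a course like those of DDIT3 and TRIB3. ASNS, asparagine synthetase, read 9.63, 10.15, 10.07 and 10.16 at 0 h, 11.41, 11.16 and 11.17 at 18 h, and 9.61, 12.59 and 12.71 at 36 h. It read 11.67 and 11.71 at 53 h, 10.70 and 10.73 at 72 h, and 9.41 and 8.80 at 96 h. Array 1 of 36 h again lay with the 0 h arrays, as it did for DDIT3 and TRIB3. ASNS rose by 1.64 ± 0.54 at 36 h and 1.69 ± 0.61 at 53 h (limma adjusted p = 0.016 and 0.026), and without that array by 2.65 ± 0.17 at 36 h (5.7e-08). Its 36 h call was lost without array 2 or array 3, where the difference was 1.16 and 1.10.

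CTH, which makes cysteine from cystathionine, rose by 1.15 ± 0.25 at 18 h, 1.72 ± 0.25 at 36 h (2.13 without array 1) and 1.49 ± 0.28 at 53 h (limma adjusted p = 0.0042, 4.0e-05 and 3.9e-04), and at 96 h it was at -0.21 ± 0.28. Transporter genes differed at 96 h. SLC38A2, a carrier of neutral amino acids, rose by 0.33 ± 0.07 at 18 h and 1.06 ± 0.08 at 53 h and was still up by 0.65 ± 0.08 at 96 h (0.0035, 6.8e-08 and 1.1e-05). SLC7A11, the cystine carrier, rose by 1.18 ± 0.18 at 72 h and 0.70 ± 0.18 at 96 h (5.7e-05 and 0.0045). SLC7A5, a carrier of large neutral amino acids, and its partner SLC3A2, both named after their values were seen, fell by 1.79 ± 0.60 and 1.15 ± 0.45 at 96 h (0.019 and 0.041). SLC7A1, SLC1A5 and SLC1A4, other carriers also named after their values were seen, were at -0.63 ± 0.52, -0.57 ± 0.45 and -0.57 ± 0.72 at that time (0.31, 0.29 and 0.51). Without array 1 of 36 h all 3 passed the test, with these differences unchanged and SEs of 0.20, 0.11 and 0.16. CBS and NARS1, for cystathionine synthesis and asparagine charging, fell by 1.45 ± 0.35 and 0.79 ± 0.15 at 96 h (0.0027 and 5.3e-04).

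Among the 28 tested genes of that list 4 rose and 0 fell at 18 h, 10 rose and 1 fell at 36 h, 8 and 1 at 53 h, 4 and 3 at 72 h, and 2 and 7 at 96 h, with medians of 0.27, 0.27, 0.32, 0.01 and -0.51. The shares higher were 14.3, 35.7, 28.6, 14.3 and 7.1%, near or below the 14.8, 33.2, 31.8, 29.3 and 25.1% of all genes. The shares lower were 0, 3.6, 3.6, 10.7 and 25%, against 14.7, 32.1, 34.5, 39.2 and 35.7% of all genes. At 96 h 27 of the 28 were lower than at 53 h, with a median of -0.55, and 5 of them passed the test. Of all 7304 genes 3852 were lower, with a median of -0.03, and 19.8% passed as lower. Array 1 of 36 h lay at least 1 below both others in 21 of the 28. Without it 14 rose and 3 fell at 18 h, 23 and 0 at 36 h, 14 and 5 at 53 h, 13 and 11 at 72 h, and 7 and 15 at 96 h. Under that setting 17.3, 33.0, 33.1, 30.4 and 26.5% of all genes rose, and 16.2, 31.3, 35.5, 40.1 and 36.9% fell. The same setting gave a 36 h median of 0.82, and 20 rather than 5 genes that passed as lower at 96 h against 53 h. Leaving out single arrays gave from 2 to 17 calls at 18 h and from 7 to 23 at 36 h, and the block gave 2 at 18 h.

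**Figure D4:**
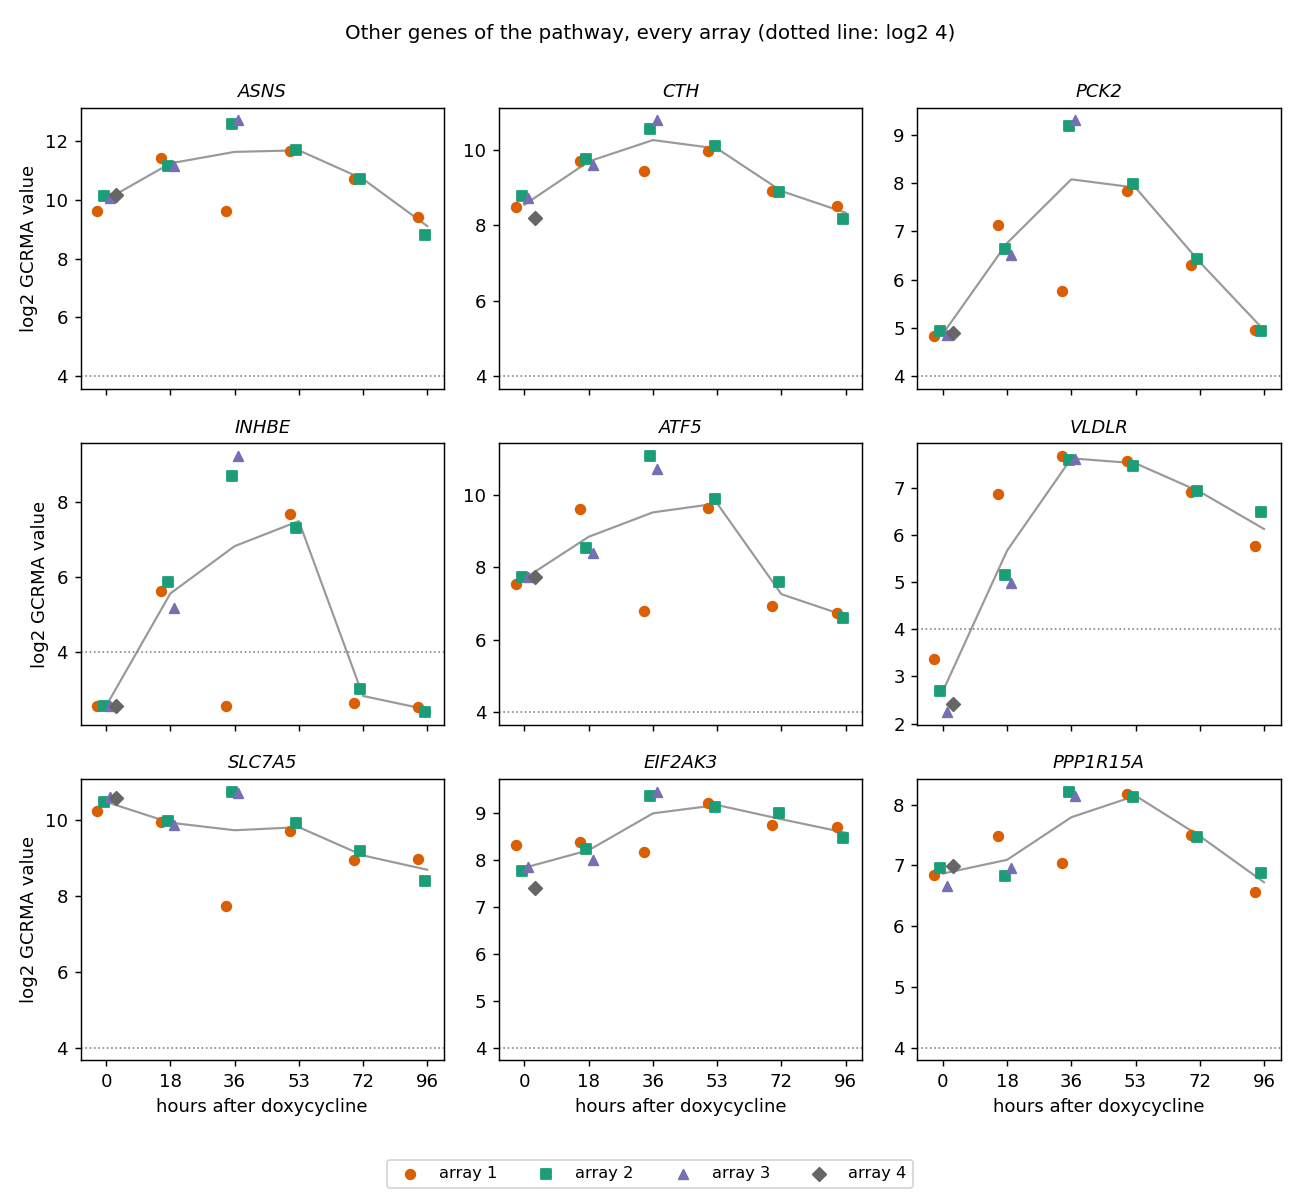
Log2 GCRMA value on every array of 9 other genes of the pathway against hours of doxycycline, with the same symbols as for the members and lines through the means. ASNS, PCK2, INHBE, ATF5 and SLC7A5 have array 1 at 36 h far below arrays 2 and 3, and VLDLR has all 3 close together near 7.6.

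PCK2, INHBE and ATF5 are other targets of ATF4 or CHOP and were picked after their values were seen. PCK2, the mitochondrial PEP carboxykinase, read 5.76, 9.18 and 9.30 at 36 h, against 4.83, 4.93, 4.84 and 4.89 at 0 h. INHBE, an inhibin subunit, read 2.56, 8.69 and 9.22 at 36 h, against 2.58, 2.57, 2.57 and 2.57 at 0 h. ATF5, a bZIP factor of mitochondrial stress, read 6.78, 11.07 and 10.71 at 36 h, against 7.53, 7.74, 7.73 and 7.74 at 0 h. The first array of 36 h thus lay at or below the 0 h level for INHBE and ATF5 and above it for PCK2.

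VLDLR, a lipoprotein receptor and ATF4 target, was dim on all 0 h arrays and at least 3.18-fold higher at 18 h, 12.4-fold at 36 h (12.2-fold without array 1), 11.5-fold at 53 h and 4.37-fold at 96 h (limma adjusted p = 1.4e-04, 1.3e-07, 4.5e-07 and 1.6e-05). VEGFA, the angiogenic growth factor, rose by 1.29 ± 0.24 at 36 h (3.1e-04), and by 1.61 without array 1. CCPG1, a receptor for autophagy of the endoplasmic reticulum, rose by 1.96 ± 0.35 at 96 h (3.2e-04), and SQSTM1, the autophagy receptor p62, by 1.58 ± 0.14 at 72 h (3.7e-07). PMAIP1, the BH3-only death gene NOXA, fell by 0.61 ± 0.09 at 18 h and rose by 1.45 ± 0.11 at 72 h (4.4e-04 and 4.2e-08). STC2, a secreted glycoprotein, was dim at 0 h and at least 1.47-fold higher at 53 h (0.015). VLDLR and STC2 met the minimum for the test on doxycycline arrays alone. Their p-values use the dim 0 h values as deposited and do not test the bounds.

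Of 19 tested genes in this list of other ATF4 or CHOP targets, 2 rose and 1 fell at 18 h, 13 and 1 at 36 h, 13 and 0 at 53 h, 10 and 1 at 72 h, and 6 and 0 at 96 h. Medians were 0.23, 0.63 (0.69 without array 1 of 36 h), 0.86, 0.57 and 0.15. The shares called higher were 10.5, 68.4, 68.4, 52.6 and 31.6%, where all genes had 14.8, 33.2, 31.8, 29.3 and 25.1%. The 6 related lists were chosen with earlier results of these arrays known, so nothing is read from their shares. In this list VLDLR, INHBE, STC2 and HMOX1 met the minimum for the test on doxycycline arrays alone. Leaving out array 1 of 36 h gave 7 calls at 18 h, and leaving out array 1 of 72 h gave 7 at 72 h.

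Paralogs and partners of the members took separate courses. TRIB2, a pseudokinase related to TRIB3, rose by 0.48 ± 0.07 at 18 h and 1.22 ± 0.07 at 36 h (1.26 without array 1) and was at 1.68 ± 0.08 at 96 h (limma adjusted p = 2.6e-04, 7.9e-09 and 1.3e-09), while TRIB1 fell by 0.98 ± 0.25 at 18 h (0.011). CEBPD, a C/EBP factor like CEBPB, was at -0.08 ± 0.18 at 18 h, and at 53, 72 and 96 h it rose by 3.29 ± 0.20, 4.62 ± 0.20 and 1.85 ± 0.20 (1.5e-08, 4.5e-10 and 5.0e-06). CEBPG, a frequent ATF4 partner, fell by 1.27 ± 0.50 at 96 h (0.043), and at 36 h its -0.22 ± 0.44 turned to 0.62 without array 1. Of 6 relatives tested 1 rose and 2 fell at 18 h, 3 rose and 0 fell at 53 h, and 2 rose and 1 fell at 96 h, with medians of 0.02, 0.66 and 0.45.

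Genes of the IRE1 and ATF6 branches of the unfolded protein response, which run beside PERK, had calls from 36 h on with all arrays. DNAJB9, a chaperone of the endoplasmic reticulum, was at 0.04 ± 0.40 at 18 h and rose by 1.78 ± 0.40 at 36 h (2.51 without array 1), 2.31 ± 0.46 at 53 h and 1.54 ± 0.46 at 96 h (limma adjusted p = 0.0014, 5.2e-04 and 0.0099). EDEM1, of protein degradation there, rose by 1.06 ± 0.27 at 36 h (0.0035; 1.52 without array 1), and MBTPS1, a protease that activates ATF6, by 0.77 ± 0.09 at 96 h (1.1e-05). Of 16 tested genes 0 passed at 18 h, 5 rose at each of 36 h, 53 h and 72 h, and 8 rose at 96 h, with none lower, and medians were 0.01, 0.43, 0.57, 0.63 and 0.67. The share higher at 36 h, 53 h and 72 h, 31.25%, lay near the 33.2, 31.8 and 29.3% of all genes. At 96 h it was 50%, against 25.1%. At 96 h all 16 were above 0 h, where the targets of amino acid supply had 11 of 28 above and all genes 3154 of 7304.

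Array 1 of 36 h lay at least 1 below both others in 11 of these 16 genes. Without it 1 rose and 2 fell at 18 h, 16 rose at 36 h, 12 rose and 1 fell at 53 h, 12 rose at 72 h, and 13 rose at 96 h. The 36 h median was then 1.02, above the medians of all other times. SDF2L1 of this list turned from -0.65 ± 0.72 to 0.72 at 36 h. Leaving out array 1 or array 2 of 72 h gave 2 calls at 72 h, and leaving out array 1 or array 2 of 96 h gave 3 and 4 at 96 h.

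Hypoxia also induces DDIT4 and VEGFA, so genes of that response were counted too. Of 11 tested genes 3 rose and 0 fell at 18 h, 4 and 3 at 36 h, 6 and 2 at 53 h, 7 and 1 at 72 h, and 7 and 0 at 96 h, with medians of 0.06, 0.44 (0.37 without array 1 of 36 h), 0.22, 0.57 and 0.35. The shares higher were 27.3, 36.4, 54.5, 63.6 and 63.6%, where all genes had 14.8, 33.2, 31.8, 29.3 and 25.1%. With the replicate number as a block 0 passed at 18 h, and without array 2 or array 4 of 0 h or array 1 of 18 h 1 did. P4HA1, a collagen prolyl hydroxylase, rose by 0.47 ± 0.15 at 18 h and 1.55 ± 0.18 at 96 h (limma adjusted p = 0.035 and 6.4e-06), BNIP3L, of mitochondrial clearance, by 1.85 ± 0.17 at 53 h (7.0e-07), and EPAS1, which encodes HIF-2 alpha, by 7.48 ± 0.63 at 72 h (1.7e-07), with 2 of the 4 arrays of 0 h dim. LDHA and SLC2A1, also of the hypoxia list and named after their values were seen, went the other way at 53 h. They differed from 0 h by -1.17 and -0.68 at 53 h, and by 0.26 and 0.12 at 96 h. In this list array 1 of 36 h was at least 1 below both others in 0 of 11 genes, although DDIT4 itself was. What part hypoxia has in the values of DDIT4 was not tested.

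**Figure D5:**
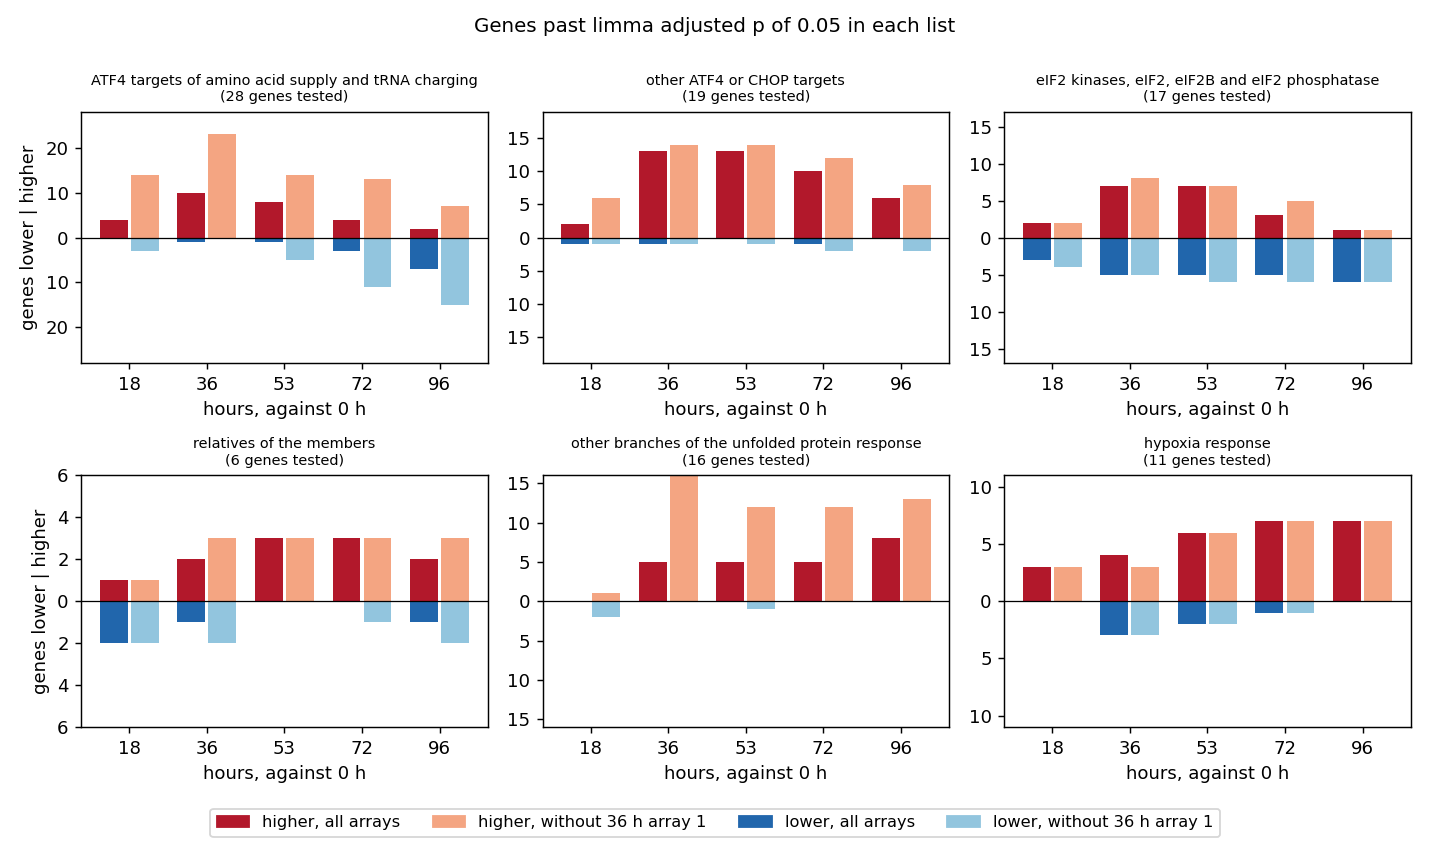
Genes called higher and lower against 0 h at each time in the 6 related lists, with all arrays and without array 1 of 36 h, as counts of tested genes. In the amino acid supply list 10 genes are called higher at 36 h with all arrays and 23 without that array.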

How the data were processed

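Gene expression of A673 cells, clone Asp14, was read on 16 Affymetrix arrays grouped by the hours of doxycycline in the labels. The deposited values are log2 expression from GCRMA, per the submitters' processing notes, with version and settings not given in the sources used. GCRMA compresses dim values, so differences near background are less certain. Array number limits the precision. Of 22277 probe sets 19070 had 1 gene symbol in the platform annotation, 1043 several and 2164 none. Each of 11963 genes was represented by its brightest probe set on average, and 7304 genes with log2 4 or more on at least 2 arrays were tested.

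Limma 3.58.1 in R 4.3.3 fitted 1 mean per time over all 16 arrays (lmFit, contrasts.fit and eBayes with a trend, leaving 10 residual degrees of freedom). P-values were adjusted after Benjamini-Hochberg over the tested genes of each comparison, at a threshold of 0.05. Comparisons were every time against 0 h, 96 h against 18 h and, chosen after seeing the data, 96 h against 53 h. The members and the 6 related lists were chosen with earlier results of these arrays known, and the members carry no p-value. In each related list the 4 genes with the smallest adjusted p at 96 h and the 2 with the smallest at 18 h against 0 h are named or counted, plus the eIF2 kinases, PPP1R15A, ASNS, STC2 and VEGFA. For likeness, found for every member, the 2 nearest other genes are named for TRIB3, NUPR1, DDIT3 and ATF4. Genes outside these choices are said to be so. A lower bound on a fold sets the brighter mean against log2 4 where all probe sets of the gene are below it on every array of the dimmer group. Promoter windows come from RefSeq tables.

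The labels number the replicates without saying that cultures were separate, so tests use a spread that may be technical only. Deviations from the group means correlated at 0.214 to 0.632 between same-numbered arrays of 0 h, 18 h and 36 h. Between an array numbered 2 and one numbered 3 of another of these times the correlation was 0.202 to 0.55, so these numbers could not be told apart. Same-numbered arrays of which at least 1 was of 53, 72 or 96 h correlated at -0.207 to 0.248. Pairs were therefore not established. The reported model has no block and treats the arrays as unpaired. The block, which links arrays of the same number, is given as an alternative only. In simulations of 7304 genes, 84% of those changed by 1 (log2) and 44.5% of those changed by 0.5 were called at 18 h against 0 h, with 9 and 7 false calls. At 96 h against 0 h 79.5% and 26.5% were called, with 9 and 1 false calls, so many changes of 0.5 were missed there. The simulations changed 200 genes and gave each array independent noise. In the real arrays numbers 2 and 3 lay close together and many more genes were called, so these rates may not hold for them. Alternatives were no filter, the mean of probe sets, quantile normalization, centring, the block, no trend, averaged replicates, dim values at log2 4, all probe sets, and each array left out. Python 3.11.15 with matplotlib 3.10.9 drew the figures.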

Additional observations from a re-analysis of the deposited data

Results flagged for a closer look

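At 0 h, with 4 arrays, 45 series of values (members and named genes) were checked for 1 array far from the others, by the gap to the nearest array as a share of the range, and 4 passed Dixon's limit, which chance passes in about 1 of 20 groups. DDIT4 read 6.23 on array 1, with the others between 4.59 and 4.71, a share of 0.9271. CHAC1 read 2.92 on array 3, with the others between 2.69 and 2.70, a share of 0.9462, and all 4 values are dim. NCK1 read 10.08 on array 1, with the others between 9.74 and 9.79 (0.8517), and ASNS 9.63 on array 1, with the others between 10.07 and 10.17 (0.8292). Without array 1 of 0 h, DDIT4 was 5.10 above 0 h at 36 h, where all arrays gave 4.71.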

How the results depend on the processing

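Counts of calls were taken again under each setting named among the methods and under 3 added after seeing the data (the arrays numbered 1 of 0 h, 18 h and 36 h left out, numbers 2 and 3 averaged at these times, and 96 h against 53 h as a further comparison). CEBPG and SDF2L1 reversed at 36 h, to 0.62 and 0.72 without array 1 of 36 h and to 0.52 and 0.60 without all 3 arrays numbered 1. Over single arrays left out, CEBPG and SDF2L1 ran from -0.66 and -1.34 to these values. The cause was not tested. Counts at 18 h against 0 h that moved by over 1.5 times under the settings other than these were the eIF2 list (5 to 3 with no filter and 2 with the replicate block), amino acid supply (4 to 2 with no filter, with the block and with averaged 18 h arrays), other ATF4 or CHOP targets (3 to 5 with the mean of probe sets) and hypoxia (3 to 1 with no filter and 0 with the block). The unfolded protein response list at 96 h against 18 h moved from 5 to 3 with the mean of probe sets and 2 with averaged 18 h arrays. Over 103 genes, those of the 6 related lists together with the Ewing sarcoma markers, the block changed the calls from 23 to 15 at 18 h (9 lost, 1 gained). At 36, 53, 72 and 96 h it lost 3, 1, 2 and 6 calls and gained 3, 2, 3 and 3, where 57, 55, 47 and 46 were called without it.

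Without the 3 arrays numbered 1 the members called were 8 at 18 h, 8 at 72 h and 7 at 96 h, where all arrays gave 4, 5 and 3, and 2054, 5287 and 4726 of the 7304 genes tested were called. The same setting gave, at 18, 36, 53, 72 and 96 h, 14, 23, 19, 24 and 22 calls in amino acid supply and 2, 16, 13, 13 and 13 in the unfolded protein response list. It gave 7 and 11 in other targets at 18 h and 96 h, and 5 and 5 in relatives at 36 h and 96 h. At 96 h against 18 h it gave 10 in the eIF2 list, 21 in amino acid supply, 14 in other targets and 15 in the unfolded protein response list, and at 96 h against 53 h 22 in amino acid supply, 4 in relatives and 9 in the unfolded protein response list. With numbers 2 and 3 averaged, 1269 of all genes were called at 18 h, where all arrays gave 1078 higher and 1072 lower. Averaging also gave at 18 h 1 gene each of the eIF2, relatives and hypoxia lists and 2 of amino acid supply, and at 36 h, where 4051 of all genes were called, 5 members, 5 genes of amino acid supply, 9 other targets and 3 of the unfolded protein response list. Of the last list it gave 5 at 96 h and 2 against 18 h, where the eIF2 list had 1.

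Leaving out each array in turn gave 1353 to 2443 calls of all genes at 18 h. Members ranged from 3 to 9 at 18 h, counts that rest on the choice of the genes. Amino acid supply ranged from 2 to 17, 7 to 23, 4 to 19, 3 to 24 and 5 to 22 at the 5 times, 4 to 21 at 96 h against 18 h and 2 to 20 at 96 h against 53 h. The eIF2 list ranged from 1 to 6 at 18 h and 1 to 8 at 96 h against 18 h. Other targets ranged from 2 to 7 at 18 h, 7 to 14 at 72 h, 5 to 10 at 96 h, 4 to 10 at 96 h against 18 h and 2 to 13 at 96 h against 53 h. Relatives ranged from 2 to 5 at 36 h and at 96 h, and 1 to 4 at 96 h against 53 h. The unfolded protein response list ranged from 0 to 3, 4 to 16, 3 to 13, 2 to 12 and 3 to 13 at the 5 times, 2 to 15 at 96 h against 18 h and 0 to 6 at 96 h against 53 h. Hypoxia ranged from 1 to 3 at 18 h and 2 to 4 at 96 h against 53 h. Where 1 array is left at a time, it is assumed to vary like the others.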
